A study of Mus musculus with 6 samples.

Results

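When a neuron fires strongly, it switches on a small programme of genes, and the products of many of them act at the synapse. The 10 genes described here were grouped as activity-induced synaptic effectors, although Btg2 and Ier2 act on gene expression. The 10 are Arc, Nptx1, Nptx2, Nrn1, Inhba, Ptgs2, Plk2, Rheb, Btg2 and Ier2. They were chosen by name, and every probeset annotated to one of these genes alone was taken, which gave 16 probesets for the 10 genes among the 45037 probesets of the array that are not controls. Hippocampal RNA was measured in 3 Glud1 transgenic (Tg) and 3 wild-type (wt) male mice, with 1 Affymetrix Mouse Genome array per mouse. All 6 mice were of the C57BL/6 background and 9 months old. The Tg mice carry an added copy of Glud1, which encodes the mitochondrial enzyme glutamate dehydrogenase, driven by the Nse (neuron-specific enolase) promoter, which restricts the extra expression to nerve cells. The wt mice lack the transgene. The study describes no treatment of either group beyond anaesthesia before dissection. The Tg line serves as a model of a moderate, lifelong excess of glutamate release at synapses, and the comparison asks how genes that neurons induce on activity stand in such a hippocampus.

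Glutamate opens AMPA and NMDA receptors, calcium enters the cell, and kinases activate transcription factors such as CREB that already wait on DNA. The genes induced first need no new protein synthesis and are called immediate early genes. Some, such as Fos and Egr1, encode transcription factors, and others, the effectors, change the synapse directly. Arc messenger RNA travels to dendrites, where Arc protein promotes the endocytosis of AMPA receptors. Neuronal pentraxins gather AMPA receptors from outside the cell, Plk2 weakens overactive synapses, and neuritin, the product of Nrn1, promotes the growth and stability of dendrites and spines. In the hippocampus Arc is induced by exploration and, strongly in the granule cells of the dentate gyrus, by seizures.

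CREB binds the cyclic AMP response element (CRE), whose full form is TGACGTCA and reads the same on both strands. The RefSeq promoter table (GRCm38.p6, 250 bases before to 50 after each start) holds 5 of the 10 genes: Ptgs2, Btg2, Plk2, Rheb and Inhba. The full element was found in 2 of these 5, Btg2 and Plk2, whereas 1.79% of the 32851 promoters in the table hold it. The shorter element TGACG, which is contained in the full one, was found on either strand in 4 of 5 and in 20.8% of all promoters. The CArG box, which binds serum response factor, was found in 0 of 5 and in 1.63% of all. A match of letters does not show that a factor binds there. Both full elements are shown in capitals with the bases around them, since Btg2 and Plk2 are among the genes with higher signals in Tg mice described next. They are read 5′ to 3′ on the strand of the gene, from chr1:134079284-134079351 (minus strand) for Btg2 and chr13:110394952-110395019 (plus strand) for Plk2. The element begins 166 bases before the start of Btg2 and 62 bases before that of Plk2.
Btg2: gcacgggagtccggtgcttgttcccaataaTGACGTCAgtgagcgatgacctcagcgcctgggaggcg
Plk2: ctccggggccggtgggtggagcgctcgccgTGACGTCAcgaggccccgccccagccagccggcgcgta

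Each array gives 1 MAS5 signal per probeset, a brightness on a linear scale scaled to the same trimmed mean on all 6 arrays. Probesets were compared on log2(signal + 16), with the 31% of lowest mean level left out, which kept 31076. Of the 16 member probesets 14 were kept, with at least 1 for each gene. Differences are log2 fold changes, Tg minus wt, from limma, with Benjamini-Hochberg adjustment of p over the 31076 kept probesets. The added constant of 16 makes the fold changes of dim probesets smaller. At the brighter of its probesets, Glud1 itself gave 5424 ± 268 in Tg mice, against 6009.6 ± 368 in wt mice (SD, n = 3). Where the transgenic transcript ends is not given in the sources used here, so the Glud1 probesets check no label, and each direction below relies on the mice being labelled correctly.

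Several of the 10 genes had higher signals in Tg mice, by 1.20-fold to 1.72-fold, but none passed the test adjusted over all probesets. limma called 0 of the 14 kept member probesets at an adjusted p under 0.05 (background 0% of 31076), and Cyber-T, a test of the kind the study used, also called 0, with 65 calls in the whole table. Of the 14, 6 had an unadjusted p under 0.05 and were higher in Tg, 1 each for Arc, Nrn1, Nptx1, Btg2, Plk2 and Ier2, against 5.91% of all kept probesets. At the same threshold 0 of 14 were lower, against 3.78% of all. All 3 Tg arrays lay above all 3 wt arrays in 5 of 14 (8.58% of all), and below them in 0 of 14 (6.67% of all). The log2 fold change was positive in 13 of 14 and in 53.2% of all kept probesets, with a median of 0.31 for the members and 0.020 over all. With each array centred on its median, 5 of the 14 were higher and 0 lower, beside 1226 higher and 2162 lower in the whole table, and 85.7% of the member and 43.0% of all log2 fold changes were positive. Arc, Nptx1 and Btg2 are also in the study's lists of genes it called higher in these same mice. Their direction here is therefore no independent evidence. The study made its calls with SAM and Cyber-T on values from another normalization (RMA), so its calls and the 0 calls here rest on unlike values and tests.

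**Figure D1:**
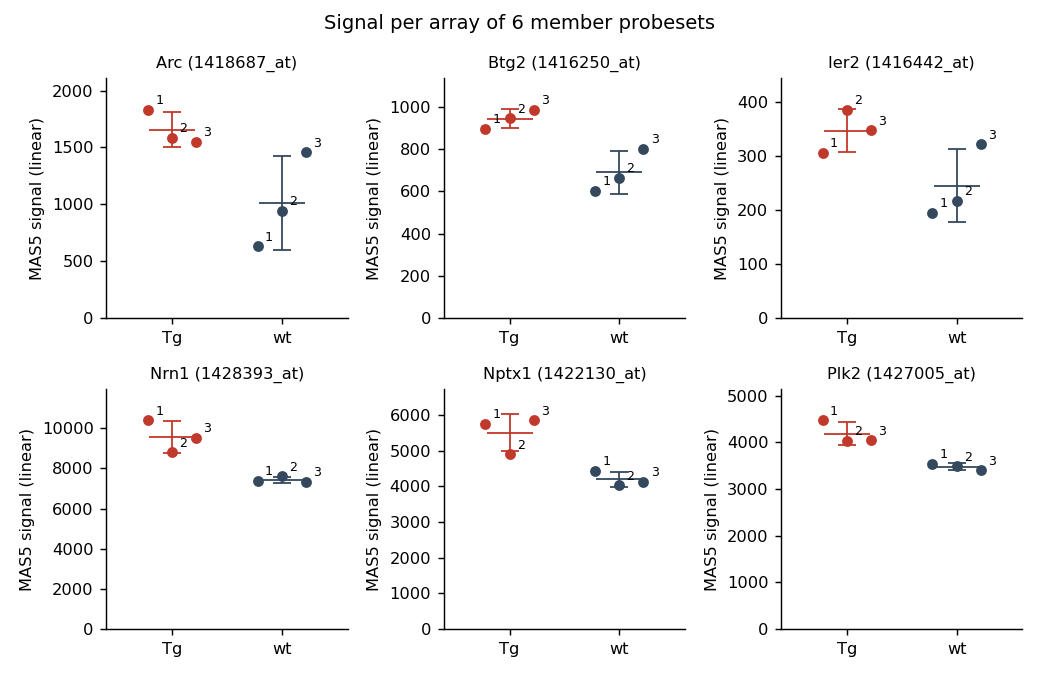
MAS5 signal (linear scale, from 0) of 6 member probesets on each array, with Tg at the left and wt at the right of each panel. Points are single mice numbered by replicate, and the bar and whiskers are the mean ± SD of 3 mice. Each panel shows the probeset of that gene with an unadjusted p under 0.05 in limma. For Nrn1, Nptx1 (1422130_at) and Plk2 the 3 wt mice lie close together and below every Tg mouse. At the brighter Nptx1 probeset, 1434877_at, which is not shown, the groups overlap. For Arc, Btg2 and Ier2 the mouse wt 3 lies nearer to the Tg mice.

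Arc had the largest difference. Its signal (1418687_at, the single Arc probeset) was 1832, 1586 and 1550.2 in the mice Tg 1, Tg 2 and Tg 3, against 634, 943 and 1457 in wt 1, wt 2 and wt 3. The Tg mice lay within 1.18-fold of each other, whereas the highest wt mouse was 2.30-fold above the lowest. The groups did not overlap, but the lowest Tg mouse was only 1.06-fold above wt 3. The means were 1656 ± 153 in Tg mice, against 1011 ± 416 in wt mice (SD, n = 3), and the log2 fold change was 0.78 (SE 0.22, 95% confidence interval 0.29 to 1.27, adjusted p = 0.283). It was 0.49 without wt 1, 1.08 without wt 3, and 0.18 without both wt 1 and wt 2, with an unadjusted p of 0.272 in that last case.

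The neuronal pentraxins are secreted proteins that bind the outer part of AMPA receptors and cluster them at synapses. Nptx1 at 1422130_at had signals of 5754, 4909 and 5852 in Tg mice, against 4436, 4034 and 4126 in wt mice. Every Tg mouse was above every wt mouse, and the log2 fold change was 0.39 (SE 0.091, interval 0.19 to 0.58, adjusted p = 0.227). A brighter probeset of the same gene, 1434877_at, gave 10084, 7643 and 8937 in Tg mice, against 7124, 8288 and 7894 in wt mice. There the groups overlapped, since Tg 2 was below both wt 2 and wt 3, and the log2 fold change was 0.19 (interval -0.036 to 0.41, adjusted p = 0.590). It was 0.092 without Tg 1, 0.13 without wt 1 and 0.29 without Tg 2. The direction of Nptx1 was the same at both probesets, while the separation of the groups was seen at one only.

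Nptx2, the pentraxin also known as Narp, is the member of the family most strongly induced by activity. It had 243, 229 and 236 in Tg mice and 249, 279 and 190 in wt mice at 1420720_at, with a log2 fold change of -0.0033 (interval -0.46 to 0.46). At the dimmer probeset 1449960_at it had 160, 88.8 and 116 in Tg mice and 89.1, 77.8 and 62.6 in wt mice, and the log2 fold change there was 0.55 (SE 0.34) at an adjusted p of 0.635. The probesets of Nptx2 thus gave different values, and neither value was separated from 0.

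Nrn1 encodes neuritin, a small protein anchored to the outer membrane of neurons that promotes the growth of neurites. Its signal (1428393_at) was 10394, 8809 and 9538 in Tg mice, against 7383, 7618 and 7335 in wt mice. The wt mice differed by only 1.04-fold among themselves, and the lowest Tg mouse was 1.16-fold above the highest of them. The log2 fold change was 0.36 (SE 0.080, interval 0.19 to 0.53, adjusted p = 0.227), from means of 9580.1 ± 793 in Tg and 7445 ± 151 in wt mice. By its p value Nrn1 ranked 96 among the 31076 kept probesets, the highest place of any member.

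Inhba encodes the beta A subunit of activin A, a secreted growth factor that shapes spines. At 1422053_at the signals were 117, 18.2 and 119 in Tg mice, against 212, 20.4 and 52.6 in wt mice. The mice of either group differed by over 6-fold, so the log2 fold change of 0.036 has an interval of -1.48 to 1.55 and gives no direction. The probeset 1458291_at was too dim to be kept, with 51.0, 14.4 and 33.6 in Tg mice and 9.7, 13.2 and 16.1 in wt mice.

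Plk2, Ptgs2 and Rheb encode enzymes that act inside the cell. Plk2, also called SNK, is a kinase that marks the spine protein SPAR (gene Sipa1l1) for breakdown after prolonged activity. At 1427005_at it had 4469, 4032 and 4046 in Tg mice, against 3540.2, 3489 and 3403 in wt mice, with all Tg above all wt mice. The log2 fold change was 0.26 (SE 0.082, interval 0.084 to 0.44, adjusted p = 0.324). A further Plk2 probeset, 1443780_at, was left out as dim, at 12.5, 6.4 and 22.1 in Tg mice and 47.2, 5.9 and 3.9 in wt mice.

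Ptgs2 encodes cyclooxygenase-2, which starts the synthesis of prostaglandins and is induced by activity in excitatory neurons. At 1417262_at its signals were 1275, 542 and 700.4 in Tg mice, against 675, 854 and 568 in wt mice. The mouse Tg 1 was far above the other Tg mice, and without it the log2 fold change of 0.18 turned to -0.16. At 1417263_at the values lay closer, with 595, 472 and 569.8 in Tg mice and 486, 396 and 477 in wt mice. At this probeset the log2 fold change was 0.26 (interval -0.084 to 0.60), with Tg 2 below wt 1 and wt 3.

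Rheb encodes the small GTPase that activates the growth kinase complex mTORC1. It had 8960.1, 7831 and 6459.7 in Tg mice, against 6437, 7661 and 6934 in wt mice. The groups overlapped, with Tg 3 below wt 2 and wt 3, and the log2 fold change was 0.14 (interval -0.11 to 0.38). It was 0.024 without Tg 1, 0.076 without wt 1 and 0.26 without Tg 3, with an unadjusted p of 0.0275 in that last case.

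Btg2 and Ier2 act on gene expression, Btg2 as an antiproliferative protein that recruits the CCR4-NOT deadenylase to messenger RNA, and Ier2 as a nuclear protein of the immediate early class. Btg2 at 1416250_at had 895, 945 and 985 in Tg mice, against 603, 664 and 802 in wt mice. The groups did not overlap, and the log2 fold change was 0.45 (SE 0.13, interval 0.16 to 0.74, adjusted p = 0.299). At its dimmer probeset, 1448272_at, the groups overlapped at 349, 592 and 286 in Tg and 166, 372 and 278 in wt mice, with a log2 fold change of 0.56 (interval -0.096 to 1.22) that was 0.27 without wt 1 or without Tg 2 and 0.81 without wt 2. Ier2 (1416442_at) had 306, 385 and 348 in Tg mice, against 195, 217 and 322 in wt mice. Here wt 3 was above Tg 1, and the log2 fold change was 0.50 (SE 0.22, interval 0.026 to 0.97, adjusted p = 0.490).

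**Figure D2:**
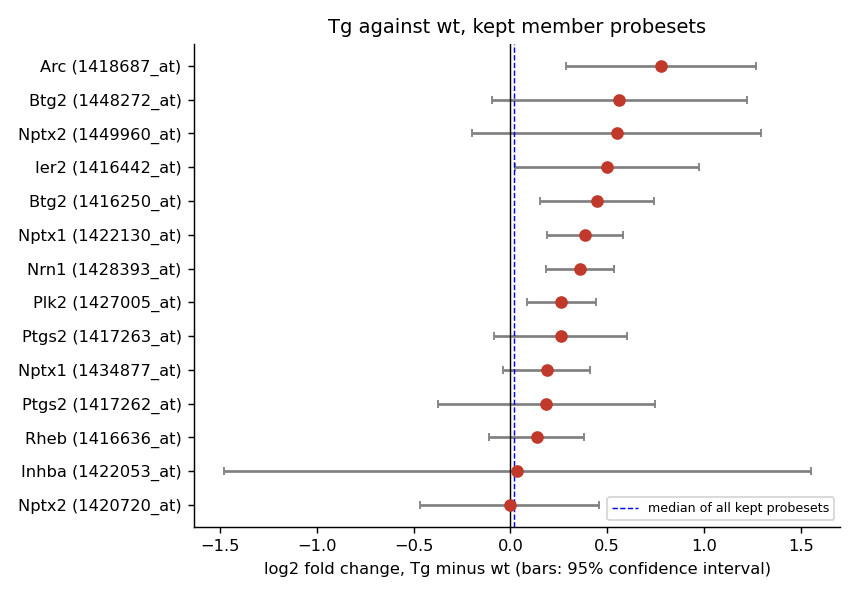
Log2 fold change, Tg minus wt, of the 14 kept member probesets with 95% confidence intervals from limma, in order of size. The dashed line is the median of all kept probesets, 0.020. The intervals of 6 probesets lie above 0, that of Nptx1 at 1434877_at does not, and that of Inhba runs from -1.48 to 1.55.

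The 6 genes with higher values fell into different patterns among the wt mice. Arc, Btg2 and Ier2 had their highest wt signal in wt 3 and their lowest in wt 1. Nrn1, Nptx1 at 1422130_at and Plk2 had similar signals in all wt mice. Without both wt 1 and wt 2, an alternative chosen after seeing the data, wt 3 alone stood for the wt mice. The log2 fold changes were then 0.18 for Arc, 0.23 for Btg2 and 0.096 for Ier2. They were 0.38 for Nrn1, 0.41 for Nptx1 and 0.30 for Plk2. The patterns were themselves read from where wt 3 lies, so this contrast restates them and is no further evidence. In that fit the wt group was held by 1 array that is assumed to vary like the Tg group. Over the 16 alternatives tried for each probeset, the unadjusted p stayed under 0.05 in all 16 for Nrn1 and for Nptx1 at 1422130_at, in 15 for Arc, Btg2 at 1416250_at and Plk2, and in 8 for Ier2. For the other probeset of Btg2, 1448272_at, it was under 0.05 in 3 of 16.

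Some other measures also set wt 1 and wt 2 apart from the other arrays. The control probeset for the 3' part of 18S ribosomal RNA had signals of 1695, 976 and 3313 in Tg mice, against 13960, 10375 and 2287 in wt mice. The ratio of the 3' to the 5' probesets of Actb, a sign of RNA integrity, was 1.64 to 1.69 in Tg mice, against 1.86, 1.95 and 1.70 in wt mice. The same ratio for Gapdh was 0.78, 0.78 and 0.80 in Tg mice, against 0.91, 0.81 and 0.75 in wt mice. By that ratio wt 2 lay close to Tg 3. The summed signal of 12 markers of dentate granule cells was 21045, 22404 and 21903 in Tg mice, against 16385, 17120 and 20328 in wt mice. These 12 genes all had a positive log2 fold change, and 6 were higher in Tg at an unadjusted p under 0.05, beside 44.1% and 2.9% of all 13854 genes taken at their brightest probeset. Of the 12, Dsp, Npnt, Sema5a, Calb1 and Dock10 are in the study's lists of higher genes from these same mice. The counts are therefore no independent evidence. The part of these differences in the values of Arc, Btg2 and Ier2 was not tested. In whole hippocampus, fewer cells of a type and less RNA per cell cannot be told apart.

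**Figure D3:**
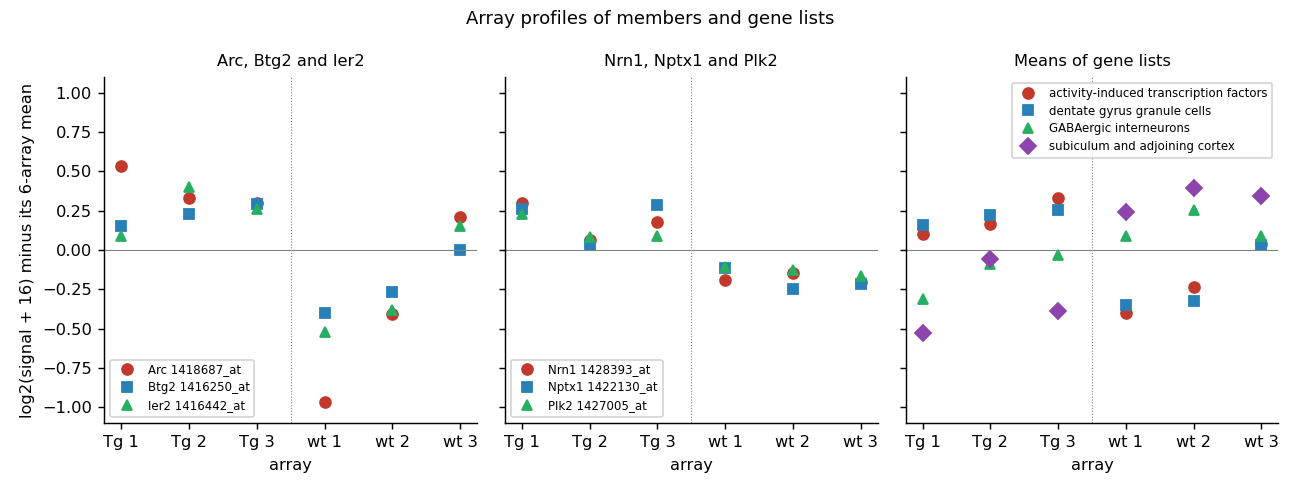
Level on each array, as log2(signal + 16) minus the mean of the 6 arrays, with Tg arrays left and wt arrays right of the dotted line. The panels show Arc, Btg2 and Ier2, then Nrn1, Nptx1 (1422130_at) and Plk2, then means over the genes of 4 lists. On wt 3 Arc stands at 0.21, against -0.97 on wt 1, whereas Nrn1 stands at -0.20 on wt 3 and -0.19 on wt 1. The means of the activity-induced transcription factors and of the granule cell markers are also higher on wt 3 than on wt 1 and wt 2.

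Markers of other cells and regions were set beside all genes, of which 44.1% were positive. All 7 measured markers of the subiculum and retrohippocampal cortex had a negative log2 fold change, 4 of them at an unadjusted p under 0.05, with summed signals of 5040.0 to 6635 in Tg and 7550.1 to 8686 in wt mice. The same counts held for the 7 markers of GABAergic interneurons, at 17802 to 20932 in Tg and 21288 to 26128 in wt mice. Tshz2, Nts, Slc17a6 and Cdh13 of the subiculum list and Vip of the interneuron list are in the study's lists of lower genes from these same mice. The counts of both lists are therefore no independent evidence. Markers of CA2 and CA3 pyramidal cells were positive in 7 of 9, and those of CA1 pyramidal cells in 3 of 6. The summed signal of choroid plexus markers, of which 0 of 8 were positive, spanned 4848 to 69794 in Tg mice, lowest in Tg 3, against 49095 to 55728 in wt mice. Of 6 striatal markers 3 were lower at an unadjusted p under 0.05, beside 4.97% of all genes. In these 3, Drd1a, Drd2 and Gpr6, all Tg were below all wt mice, with log2 fold changes of -1.47, -1.06 and -1.30. They were dim, with Tg means of 97.8, 50.6 and 37.1, against 331, 119 and 114 in wt mice. Among the brighter striatal markers Pde10a was higher (0.54), while Ppp1r1b (0.23) and Rgs9 (-0.28) did not reach that threshold. Positive log2 fold changes were found for 2 of 6 striatal, 1 of 9 endothelial and mural, 1 of 7 astrocyte, 2 of 6 oligodendrocyte and 3 of 8 microglial markers. Markers were counted only at kept probesets, whose mean signal was at least 48.8, so dimmer ones such as Rxfp1 of the subiculum list are absent. The part of these lists in the values of the 10 genes was not tested.

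The pathways in which the 10 genes act were compared with each gene taken at its brightest kept probeset. By that rule 5 of the 10 members were higher at an unadjusted p under 0.05, and limma called 0 genes of any list at an adjusted p under 0.05, while Cyber-T called 2 pathway genes, Fos and Nr4a1, and 4 of the marker genes, Dsp and Lct of granule cells, Tshz2 of the subiculum and Sst of interneurons. Over all 13854 genes 2.9% were higher and 4.97% lower at that threshold, and the median log2 fold change was -0.031. Transcription factors of the immediate early response were the list with the most such genes: of 18 measured, 10 were higher and 1 was lower, with a median of 0.35. Fos, a subunit of AP-1, had 1404, 1930.1 and 2036 in Tg mice, against 459, 939 and 1241 in wt mice (log2 fold change 1.11). Egr2, a zinc finger factor, had 197, 177 and 282 in Tg mice, against 17.9, 32.1 and 135 in wt mice (log2 fold change 1.88). In both genes the Tg mice were above all wt mice and wt 3 was the highest of the wt group, as it was for 12 of the 18 factors and for 28.0% of all genes.

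The other factors higher in Tg were Fosb (log2 fold change 1.05), Nr4a1 (0.69), Klf4 (0.60), Npas4 (0.60), Junb (0.55), Egr4 (0.55), Egr1 (0.35) and Nr4a3 (0.34). Fos, Egr2, Nr4a1, Junb and Egr1 are in the study's lists of higher genes from these same mice, so the count of higher factors is no independent evidence. Jund, a Jun protein with high basal expression, was lower, at 3836 ± 148 in Tg mice, against 4761 ± 337 in wt mice (SD, n = 3). Without both wt 1 and wt 2, 2 of the 18 factors were higher in place of 10, and 6 were without Tg 3 alone or without wt 2 alone. Of 21 other activity-induced genes 5 were higher and 0 were lower, with a median of 0.0086. These 5 were the neurotrophin Bdnf (log2 fold change 0.31), the MAP kinase phosphatases Dusp1 (0.53), Dusp5 (0.83) and Dusp6 (0.53), and the stress response gene Gadd45b (0.43). The brightest gene of that list, the Ras activator Rasgrp1, had 10262 ± 1045 in Tg and 9712 ± 586 in wt mice. With any 1 array left out, 3 or 4 of the 21 were higher, beside 3.63% to 7.11% of all kept probesets.

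Lists of the members' partners were described in the same way. Of 6 measured AMPA receptor subunits and auxiliary proteins, on which pentraxins and Arc act, 0 were higher and 2 were lower. Gria4, an AMPA receptor subunit, had 1095, 1056 and 1023 in Tg mice, against 1338, 1313 and 1286 in wt mice. Cacng2, the auxiliary subunit stargazin, had 519, 399 and 461 in Tg mice, against 659.5, 647 and 609.8 in wt mice. In both genes every Tg mouse was below every wt mouse, with log2 fold changes of -0.31 and -0.47. Gria2, the brightest of them, had 13931 ± 607 in Tg mice, against 13618 ± 520 in wt mice (SD, n = 3).

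Of 9 proteins of the endocytic machinery and postsynaptic density that Arc works with or beside, 2 were higher and 1 was lower. Dlg4, which encodes the scaffold PSD-95, had 2314, 1655 and 2537 in Tg mice, against 1554, 943 and 1502 in wt mice (log2 fold change 0.71). Camk2b, a subunit of the calcium-dependent kinase CaMKII that binds Arc, had 7688, 6724 and 6455 in Tg mice, against 5437, 5597 and 5739.7 in wt mice (log2 fold change 0.31). In both the Tg mice were above all wt mice. Dnm3, a dynamin, was lower with a log2 fold change of -0.26 and overlapping groups, and the brightest gene, Dnm1, had 22894 ± 1908 in Tg and 23083 ± 284 in wt mice.

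Sipa1l1, the spine protein that Plk2 targets, was higher in Tg mice, as Plk2 was. It had 8890.1, 7934 and 8388 in Tg mice, against 6943, 7545 and 6619 in wt mice, with no overlap and a log2 fold change of 0.26 (adjusted p = 0.328). It was the 1 gene of 5 measured in the list of Plk relatives and substrates to be higher, and 0 were lower. The median of that list was 0.26, with 4 of 5 positive. Rasgrf1, a Ras activator and the brightest of the list, had 13137 ± 468 in Tg and 12440 ± 549 in wt mice.

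For Rheb, 0 of 11 genes of the mTORC1 pathway were higher and 0 were lower, with a median of 0.021. Mtor, the kinase itself, had 2028 ± 58.8 in Tg and 2104 ± 51.2 in wt mice. Of 11 activin pathway genes 1 receptor was higher, Acvr1 (log2 fold change 0.30), and 1 was lower, Acvr2b (-0.60), while the common Smad4 had 3281 ± 96.2 in Tg and 3562 ± 90.9 in wt mice. Of 6 measured genes of prostanoid synthesis and reception 0 were higher and 0 were lower, with a median of -0.29. In that list Ptgds, the prostaglandin D synthase of meninges and choroid plexus, spanned 14089 to 38512 in Tg mice, against 15196 to 42707 in wt mice. Of 10 genes of the BTG family and the CCR4-NOT complex 0 were higher and 1 was lower, the deadenylase subunit Cnot7 (log2 fold change -0.25).

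**Figure D4:**
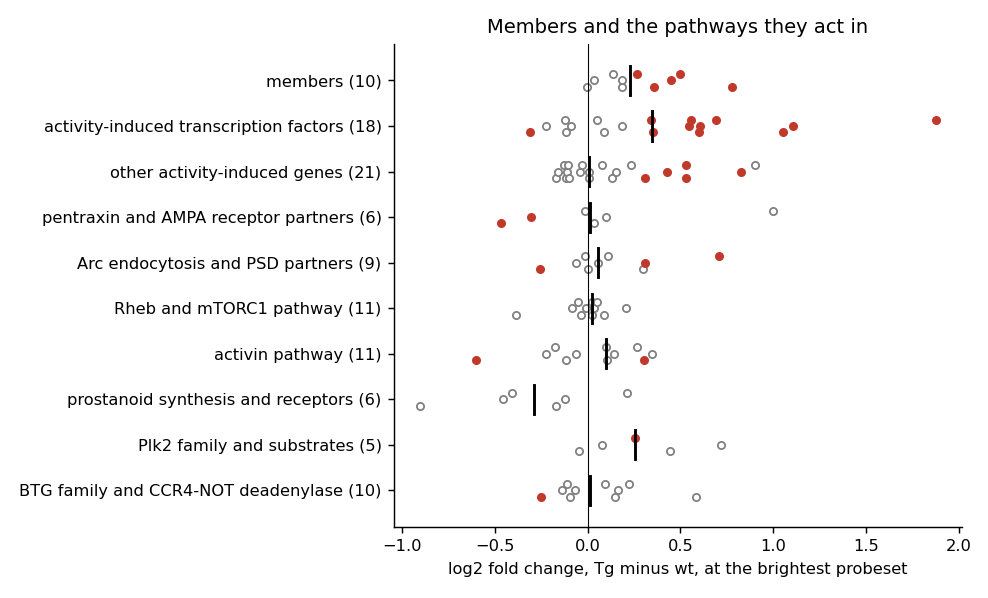
Difference between Tg and wt mice (log2 fold change) of each gene at its brightest kept probeset, for the 10 members and the pathway lists, with the number of genes measured beside each name. Filled points have an unadjusted p under 0.05, open points do not, and black bars are list medians. The medians are 0.23 for the members and 0.35 for the activity-induced transcription factors, while that of the mTORC1 pathway is 0.021.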

How the data were processed

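Total RNA of whole hippocampus was hybridised to 1 array per mouse. The deposited values are intensities, MAS5 signals that the authors' software computed and scaled on each array before deposit, and not the RMA values of the study's own lists. The number of arrays limits the precision. After setting aside 64 controls, the 31% of probesets lowest in mean log2(signal + 16) were left out (smallest mean signal kept 48.8). Tg was set against wt in limma 3.58.1 (R 4.3.3, intensity trend, two-sided, Benjamini-Hochberg over 31076 probesets). Tested on simulated data, limma found 8.96% of the 1.3-fold differences, 53.7% of the 2-fold ones and 72.7% of the 4-fold ones, with 11 false calls. Members are named at every probeset. Of each pathway list, the genes at an unadjusted p under 0.05 and the brightest gene are named. Members and lists were chosen with earlier results of these data known. Further genes of the pathway lists, among them Dlg4, Camk2b, Dusp6, Acvr1 and Acvr2b, are also in the study's own lists from these mice. Alternatives were added constants of 1 and 64, no filter or the brightest 50%, quantile normalization, median centring, no trend, Cyber-T (window 101, confidence 10), a replicate block, the mean over a gene's probesets and leaving out arrays. The alternative without wt 1 and wt 2 together was chosen after the data had been seen. Replicate numbers did not pair the arrays. Promoter sequences are from RefSeq (GRCm38.p6). Figures were drawn with matplotlib 3.10.9.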

Additional observations from a re-analysis of the deposited data

How the results depend on the processing

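limma, Cyber-T and every other alternative called 0 member probesets at an adjusted p under 0.05, and the lowest adjusted p of any member was 0.0824, for Nptx1 with Cyber-T. Of 226 log2 fold changes recomputed, 214 kept their direction. The count higher in Tg at an unadjusted p under 0.05, 6 in the report, was 5 with median centring or without the trend, and 5 to 7 without 1 array. Of all kept probesets 3.95% were higher with median centring and 5.67% without the trend. Without 1 array that share ran from 3.63% (Tg 3 left out) to 7.11% (wt 1 left out). Probesets with all Tg above all wt mice numbered 6 to 8 without 1 array and 8 without both wt 1 and wt 2, and those with all Tg below numbered 0 to 1, where fewer arrays make separation easier by construction. With the replicate block the count higher in Tg was 7. The correlations of deviations between same-numbered arrays were -0.016, 0.0078 and 0.033, so the numbers do not pair the mice. The log2 fold change of Nptx2 at 1420720_at ran from -0.15 to 0.11 without 1 array, was 0.29 without both wt 1 and wt 2 and was 0.27 as the mean of both probesets. That of Ptgs2 at 1417262_at ran from -0.16 to 0.45 without 1 array. That of Inhba was -0.058 with quantile normalization and -0.030 with median centring, and ran from -0.56 to 0.77 without 1 array. The causes were not tested. Median centring moved the median of all kept probesets from 0.020 to -0.047, and that of the members from 0.31 to 0.25. Ier2 had an unadjusted p over 0.05 in 8 of its 16 alternatives, among them quantile normalization and median centring. Of the other activity-induced genes 3 were higher and 1 lower with median centring, and 2 were higher without the trend. Leaving out 1 array moved the count of higher genes from 6 to 10 among the activity-induced transcription factors and from 3 to 4 among the other activity-induced genes. In the remaining lists of partners and pathways, the counts of higher or lower genes moved within 0 to 3.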

Other observations

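The genes whose levels over the 6 arrays were most like those of Arc were looked up among the 13853 other genes, each at its brightest kept probeset. The 5 with the highest Pearson r on log2(signal + 16) were 1700023D09Rik (0.989), Zc3hav1l (0.986), Nostrin (0.985), Adcy10 (0.982) and Kctd4 (0.978), over n = 6 arrays that all share the split between Tg and wt mice. Kctd4 had 2451.3, 2345 and 2452 in Tg mice, against 1765, 2110.2 and 2339 in wt mice, so that wt 3 was the highest wt mouse there too. Zc3hav1l had 311, 281 and 289 in Tg mice, against 164, 209 and 248 in wt mice. The others were dim, with signals over the 6 arrays of 45.3 to 134.9 for 1700023D09Rik, 65.4 to 144.2 for Nostrin and 9.6 to 106.8 for Adcy10. Of the other members Btg2 (r = 0.927, rank 85) and Ier2 (r = 0.903, rank 161) came closest. Nrn1 (r = 0.723), Nptx1 at 1434877_at (r = 0.673) and Plk2 (r = 0.667) were less like Arc, and Nptx2 at 1420720_at had an r of -0.44. The dimmer probesets of these pentraxins, among them Nptx1 at 1422130_at, were not compared with Arc here. These values describe the 6 arrays and carry no test.

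Over the 14 kept member probesets the highest signal fell in Tg 1 for 8 and in another Tg mouse for 4, while the lowest fell in wt 1 for 6 and in wt 3 for 4. The same counts over all kept probesets were not made, so nothing particular to the members can be read from these. The median signal of all kept probesets was 309.65, 318.9 and 316.7 in Tg mice, against 298, 297.3 and 305.35 in wt mice. Nptx1, Nptx2, Ptgs2 and Btg2 each enter the counts at more than 1 probeset. The highest Ptgs2, Nptx2 (1449960_at), Rheb and Nrn1 signals were all those of Tg 1.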
